A study of Rattus norvegicus with 18 samples.

Results

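The genes described here take up, bind, activate and burn fatty acids: Cd36, Lpl, Fabp3, Fabp4, Acsl1, Cpt1a, Acadm, Hadha, Eci1 and Eci3. Their values are all probe sets (groups of probes that read 1 transcript) annotated to 1 of these 10 genes alone on the Affymetrix rat arrays RAE230A (array A) and RAE230B (array B). The 10 genes, of 13810 with a symbol of their own on the arrays, had 16 such probe sets of 31142 in all. Array A held 13 of its 15866 and array B 3 of its 15276. Fabp3 and Eci3 were chosen by measured values, their small p-values for VEGF against untreated rings in an earlier look at these data, and the other 8 genes were joined to them for their place in the pathway. The VEGF values of Fabp3 and Eci3, and their Ang1 values, which share the untreated arrays, are therefore a description and no test of a response.

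RNA was measured in rings of thoracic aorta, 2 mm long, from male Fisher 344 rats aged 5 weeks, held in serum-free medium in which the vessel wall gives off sprouts. VEGF rings received human VEGF, vascular endothelial growth factor, at 10 ng/ml on day 13. Ang1 rings received human angiopoietin-1, the ligand of the endothelial receptor Tie2, at 100 ng/ml together with 5 µg/ml of a poly-His antibody on day 13. Untreated rings stayed in the serum-free medium, for 14 days in all, and received neither factor nor the antibody, so the effect of the antibody cannot be told apart from that of Ang1. RNA was taken 20 h after treatment by the sample labels and 18 h by the design text. Each of the 9 RNAs, 3 per group, came from 4 to 6 pooled rings and was read on both array types. The design text has 3 animals that each gave 1 RNA to every group, but no label ties a replicate number to an animal, so p-values measure the spread between these samples.

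Fatty acids reach a cell from lipoproteins, cut by lipoprotein lipase at the vessel surface, and enter with the help of the transporter CD36. Inside, binding proteins carry them, acyl-CoA synthetases activate them, and the carnitine shuttle takes them into mitochondria, where beta-oxidation shortens them step by step. Endothelium is known both for passing fatty acids on to muscle and for using them while it sprouts, and many genes of the pathway are targets of the PPAR nuclear receptors.

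Values below are log2(signal + 16) after quantile normalisation within an array type, so a difference of 1 unit is about 2-fold and is understated for dim probe sets. A probe set was tested where its mean over the 9 arrays lay at or above the 40th percentile of its array type, 6.52 on array A and 6.71 on array B. Of the 16 member probe sets 12 were above that line, 10 on array A and 2 on array B. The dimmest that passed was Hadha 1394763_at, at a mean of 6.81 on array B. The one closest below was Acsl1 1388153_at, at 6.43 on array A. Differences come from limma over all probe sets, with Benjamini-Hochberg adjustment over the array type at 0.05, and are given with their standard error (SE).

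Ang1 replicate 2 and untreated replicate 2 stood apart from the other 7 RNAs. On array A their median correlations with all other arrays were 0.69 and 0.79, and those of the remaining 7 were 0.87 to 0.94. The same values for array B were 0.43 and 0.75, with 0.81 to 0.87 for the remainder. The deposited 3' signal of Gapdh, a housekeeping gene, was 446.9 and 64.4 in them on array A, against 2218 to 3247. Untreated replicate 1 alone is labelled as amplified in a 2-cycle procedure, and Ang1 replicate 3 was scaled to a trimmed mean signal of 94.8 on array B, where the others had 250. Member differences are given over all 9 arrays first, and over the 7 left without these RNAs after that.

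The proximal promoters of Fabp3 and Eci3 are shown because the levels of these genes went together over the RNAs, and that of Eci2 because it is the nearest relative of Eci3 and did not separate the groups. Fabp3 and Eci3 were both chosen by small p-values for VEGF, so that they went together follows in part from the choice. The windows run from 250 bases before to 50 bases after the annotated start (RefSeq, GRCr8). They lie on the plus strand at chr5:147935875-147936174 for Fabp3, chr17:30127175-30127474 for Eci3 and chr17:30075516-30075815 for Eci2, so Eci2 and Eci3 are on 1 chromosome. Capitals mark matches to any of 5 motifs, sought on both strands. The half-site of PPAR and its partner RXR is AGGTCA. The FOXO site was written as TGTTTAC and the TATA box as TATAAA. The CCAAT box was searched by the letters of its name, and the letters of the GC box were GGGCGG.
Fabp3: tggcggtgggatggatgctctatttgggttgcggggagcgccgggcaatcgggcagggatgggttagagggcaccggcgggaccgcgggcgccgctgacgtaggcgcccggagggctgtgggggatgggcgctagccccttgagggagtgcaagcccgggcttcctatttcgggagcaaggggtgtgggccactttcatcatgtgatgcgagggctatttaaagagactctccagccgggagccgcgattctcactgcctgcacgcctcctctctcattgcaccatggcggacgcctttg
Eci3: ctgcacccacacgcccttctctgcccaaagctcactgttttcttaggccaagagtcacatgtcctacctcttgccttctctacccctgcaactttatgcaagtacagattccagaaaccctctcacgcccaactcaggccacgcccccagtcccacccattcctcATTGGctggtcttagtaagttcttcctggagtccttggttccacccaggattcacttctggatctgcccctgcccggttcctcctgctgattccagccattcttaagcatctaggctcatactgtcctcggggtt
Eci2: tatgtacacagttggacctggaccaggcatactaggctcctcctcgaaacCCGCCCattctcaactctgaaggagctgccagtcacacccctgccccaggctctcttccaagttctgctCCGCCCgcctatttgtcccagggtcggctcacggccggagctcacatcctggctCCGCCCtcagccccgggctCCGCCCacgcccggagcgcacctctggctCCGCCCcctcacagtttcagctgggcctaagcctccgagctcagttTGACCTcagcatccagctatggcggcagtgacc

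None of the 5 motifs is in the Fabp3 window, and Eci3 holds only 1 CCAAT box, on the minus strand. Eci2 holds 5 GC boxes and 1 half-site. Promoters were matched for 8 of the 10 members, and among these 8 the half-site is in Eci1 only and the TATA box in Cd36 only. Among all 33469 promoter windows of this length 16.2% hold the half-site, 3.78% the FOXO site, 14.2% the TATA box, 37.5% the CCAAT box and 33.1% the GC box. A pair of half-sites 1 base apart, the full PPAR element, was in 0.0538% of all windows and in none of the 8. No motif overlapped another in the printed windows. A match is a match of letters and not a site of binding.

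Fabp3 encodes the heart-type fatty acid binding protein, the carrier of muscle cells. Its probe set 1367660_at read 6.79, 6.67 and 6.36 in VEGF rings and 7.05, 6.29 and 6.74 in Ang1 rings, against 8.24, 8.0 and 7.30 in untreated rings. All 6 treated arrays lay below all 3 untreated ones, with the untreated replicate 3 nearest to them. On the deposited linear scale the signal was 87.2, 85.2 and 71.3 in VEGF rings and 118.6, 107.7 and 81.6 in Ang1 rings, against 281.6, 207.3 and 132 in untreated rings. The difference was -1.24 ± 0.33 for VEGF (0.424-fold) and -1.15 ± 0.33 for Ang1 (0.450-fold), each against the same untreated arrays. Neither passed over the array, with adjusted p = 1 for VEGF and 0.953 for Ang1 in limma. VEGF and Ang1 rings differed by -0.09 ± 0.33, with a 95% interval of -0.82 to 0.65.

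Eci3 is an enoyl-CoA isomerase, known from mouse as a peroxisomal enzyme that moves a double bond so that unsaturated fatty acids can be oxidised. Its probe set 1388884_at read 9.77, 9.79 and 9.69 in VEGF rings and 9.90, 9.51 and 9.70 in Ang1 rings, against 10.78, 10.73 and 10.55 in untreated rings. Again no treated array reached an untreated one, and the groups were tight, with an SD of 0.05, 0.19 and 0.12 in VEGF, Ang1 and untreated rings (n = 3 each). The difference was -0.94 ± 0.24 for VEGF (0.523-fold) and -0.98 ± 0.24 for Ang1 (0.507-fold). Over the array the limma adjusted p was 1 for VEGF and 0.953 for Ang1. VEGF and Ang1 rings differed by 0.04 ± 0.24, with a 95% interval of -0.48 to 0.57.

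**Figure D1:**
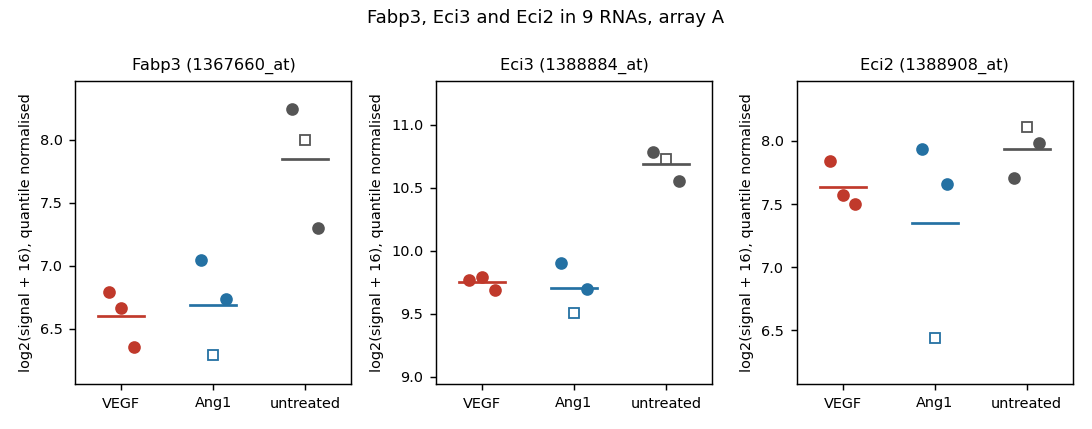
Levels of Fabp3, Eci3 and Eci2 on array A in log2(signal + 16), quantile normalised, in VEGF, Ang1 and untreated rings, 1 point per RNA with a bar at the mean of 3 and open squares for Ang1 replicate 2 and untreated replicate 2. All treated points of Fabp3 (6.29 to 7.05) and Eci3 (9.51 to 9.90) lie below the untreated ones, while those of Eci2 overlap them.

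The separation can be set beside the whole array. All 6 treated arrays lay below all 3 untreated ones in 2 of the 10 tested members on array A, and in 132 of the 9520 tested probe sets (1.39%). Since Fabp3 and Eci3 were chosen by their VEGF values, nothing follows from that count. Ranked by the gap between the lowest untreated and the highest treated array, Eci3 (0.65) was number 2 and Fabp3 (0.24) number 22 of 9520. The same choice favours high ranks, so nothing follows from them either. The untreated group decides both comparisons, since the VEGF and Ang1 differences share its 3 arrays.

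Leaving out both RNAs that stood apart, Fabp3 differed by -1.21 ± 0.32 for VEGF and -0.91 ± 0.35 for Ang1. Eci3 differed by -0.91 ± 0.24 for VEGF and -0.86 ± 0.26 for Ang1. The treated arrays still lay below the untreated ones for both genes. With so few arrays such a separation is easily reached, and the share of all probe sets that show it was not counted.

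Other measures moved in part with the groups. The actin 3'/5' ratio on array A, which grows with RNA degradation or 3' bias, was 8.79, 9.12 and 12.4 in VEGF rings and 8.29, 6.18 and 8.29 in Ang1 rings, against 4.34, 1.86 and 7.70 in untreated rings. The Gapdh 3'/5' ratio was 9.26, 11.1 and 15.1 in VEGF rings and 11.3, 2.27 and 10 in Ang1 rings, against 11.9, 1.70 and 9.11 in untreated rings, and these groups overlapped. The part of either ratio in the result was not tested. The normalised signals of the 10 smooth muscle markers on array A, 9 of them above the filter, summed to 5370, 6441 and 4562 in VEGF rings and 6718, 4539 and 6368 in Ang1 rings, against 8244, 6112 and 8825 in untreated rings. The 2 highest sums were untreated, and the groups overlapped only through untreated replicate 2, which lay inside the treated range. Without the RNAs that stood apart the untreated sums, 8244 and 8825, lay above all treated ones, the highest of which was 6718. On array B, also without them, smooth muscle sums overlapped, with 637 and 662 untreated and 456 to 830 treated. Other cell types separated there. Macrophage sums were 2920 and 2679 untreated and 4097 to 7312 treated, and endothelial sums 3242 and 3597 untreated and 1964 to 2931 treated. On array A the sums of macrophage, endothelial and fibroblast markers overlapped. The part of these cell types in the result was not tested. In bulk rings fewer cells of a type and less RNA per cell cannot be told apart.

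Markers of cells that are rich in fatty acid genes were mostly dim. Of 10 striated muscle markers on array A only Ckm passed the filter, and Myh6, Myh7, Tnni3, Mb and Myl2 did not. On array B Actc1, the cardiac actin gene, passed and read 6.15, 6.74 and 6.27 in VEGF rings and 6.91, 7.65 and 6.90 in Ang1 rings, against 6.95, 7.46 and 6.76 in untreated rings. Its 3 VEGF arrays lay below the untreated ones (-0.67 ± 0.37, limma adjusted p = 0.999), its Ang1 arrays overlapped them, and its part in the result was not tested. Of 5 brown fat markers only Cidea passed, and Ucp1 did not. Of 9 white fat markers Cfd, Pck1 and Gpd1 passed on array A, and Adipoq and Lipe passed on array B. The normalised signals of all 9 on array A summed to 618, 607 and 1024 in VEGF rings and 457, 1039 and 994 in Ang1 rings, against 637, 849 and 597 in untreated rings, so these groups overlapped. The 3 on array B summed to 984, 937 and 1720 in VEGF rings and 1443, 4191 and 1783 in Ang1 rings, against 957, 1141 and 951 in untreated rings. There all Ang1 arrays lay above all untreated ones, with Lipe higher on all 3 and Adipoq overlapping (0.00 ± 0.64). The part of fat cells in the results was not tested. Markers of vessel wall cells mostly passed on array A. There 10 of 10 endothelial, 9 of 10 smooth muscle, 8 of 9 fibroblast and 10 of 11 macrophage markers passed, beside 9520 of all 15866 probe sets. On array B 2 of 3 endothelial, 2 of 6 smooth muscle, 0 of 1 fibroblast and 3 of 3 macrophage markers passed, beside 9166 of all 15276. The share of all probe sets is set by the filter. Markers were counted by the brightest probe set of a gene, which favours passing, and the like share of all genes was not counted.

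Eci2, the mitochondrial and peroxisomal relative of Eci3, read 7.84, 7.57 and 7.50 in VEGF rings and 7.94, 6.44 and 7.66 in Ang1 rings, against 7.71, 8.11 and 7.98 in untreated rings. Its groups overlapped, and the differences were -0.30 ± 0.38 for VEGF and -0.59 ± 0.38 for Ang1. Without the RNAs that stood apart they were -0.22 ± 0.25 and -0.05 ± 0.28. A further probe set, 1372765_a_at, is annotated to both Eci3 and Eci2 and built on the same accession as the Eci3 probe set. It lay below the filter, at 6.72, 6.72 and 5.40 in VEGF rings and 6.20, 4.77 and 6.00 in Ang1 rings, against 6.11, 5.12 and 6.41 in untreated rings, and did not separate the groups. How far the Eci3 probe set also reads Eci2 was not tested.

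Over the 9 RNAs the genes most like Fabp3 were Sugt1 (Pearson r = 0.98), Eci3 (0.95) and Pln (0.94). Those most like Eci3 were Pln (0.97), Sugt1 (0.97) and Fabp3 (0.95). Over the 7 RNAs left without those that stood apart, Fabp3 and Eci3 correlated at 0.92, and Eci3 and Pln, the gene of phospholamban, at 0.96. The points share their arrays and their groups, and Pln and Sugt1, like Fabp3 and Eci3, were among the genes with small p-values for VEGF. The named genes were the highest of many, and no chance level of r was computed.

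Cd36 encodes the fatty acid transporter and scavenger receptor of capillary endothelium, macrophages and fat. Its only probe set of its own, 1367689_a_at, was below the filter, at 5.55, 5.33 and 4.86 in VEGF rings and 5.67, 4.68 and 5.48 in Ang1 rings, against 5.48, 5.59 and 5.15 in untreated rings. The groups overlapped fully. A brighter probe set, 1386901_at, is annotated to both Cd36l1 and Cd36 and so is not a member. It read 9.27, 9.98 and 9.24 in VEGF rings and 9.49, 10.66 and 9.02 in Ang1 rings, against 9.07, 10.55 and 8.61 in untreated rings. It was highest in the RNAs that stood apart and overlapped between the groups. The genes most like 1367689_a_at over 9 RNAs were Gskip (r = 0.98), Fut8 (0.98) and Rab3d (0.97). Over the 7 RNAs left without those that stood apart other genes came first, Supt16h (0.99), Ctps2 (0.99) and Kctd13 (0.98). Supt16h and Ctps2 were at only 0.32 and 0.27 over all 9. The highest r of many genes over few RNAs can be high without any link. No chance level was computed, and the probe set is dim.

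Lpl encodes lipoprotein lipase, which frees fatty acids from triglycerides. It read 8.48, 8.06 and 7.64 in VEGF rings and 7.58, 8.21 and 8.31 in Ang1 rings, against 8.42, 8.65 and 7.65 in untreated rings. Each group spanned nearly the same range. The differences were -0.18 ± 0.37 for VEGF and -0.21 ± 0.37 for Ang1. Without the RNAs that stood apart they were 0.03 ± 0.37 and -0.09 ± 0.41.

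Fabp4 encodes the fatty acid binding protein of fat cells, macrophages and capillary endothelium, and is known as a gene that VEGF induces in cultured human endothelial cells. In the rings it read 7.10, 6.85 and 7.62 with VEGF and 6.37, 6.40 and 7.19 with Ang1, against 6.85, 7.34 and 6.47 without either. VEGF replicate 3 was highest, and the groups overlapped. The differences were 0.30 ± 0.36 for VEGF, with a 95% interval of -0.49 to 1.09, and -0.23 ± 0.36 for Ang1. Without the RNAs that stood apart all 3 VEGF arrays lay above the 2 untreated ones, with a difference of 0.55 ± 0.34 and a limma adjusted p of 1. The Ang1 difference turned to 0.13 ± 0.37 there. How many of all probe sets have 3 VEGF arrays on 1 side of 2 untreated ones was not counted, so nothing follows from that order. Fabp4 varied apart from Fabp3 over the 9 RNAs (r = 0.01), and the genes most like it were Ckap5 (0.90), Vps36 (0.88) and Twf1 (0.87). Without the RNAs that stood apart other genes came first, Mpi (0.97), Gripap1 (0.96) and Cxcl13 (0.95), and Mpi was at -0.06 over all 9. These were the highest of many genes over few RNAs, and no chance level was computed.

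Acsl1, the acyl-CoA synthetase that activates long-chain fatty acids, had 3 probe sets. The bright 1370939_at read 8.68, 8.54 and 7.24 in VEGF rings and 8.24, 7.61 and 8.71 in Ang1 rings, against 8.66, 8.58 and 8.06 in untreated rings. VEGF replicate 3 was the lowest of all 9, and the groups overlapped, with differences of -0.28 ± 0.43 for VEGF and -0.25 ± 0.43 for Ang1. Without the RNAs that stood apart they were -0.22 ± 0.44 and, with the sign turned, 0.11 ± 0.49. Without VEGF replicate 3 the VEGF difference turned to 0.18. The other 2, both below the filter, lay between 5.03 and 7.24 on the first array type and between 5.75 and 6.93 on the second.

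Cpt1a encodes the liver-type carnitine palmitoyltransferase, the gate of the carnitine shuttle and the form that endothelial cells use. Its probe set 1386946_at read 8.10, 8.61 and 9.48 in VEGF rings and 8.81, 10.26 and 8.51 in Ang1 rings, against 8.83, 10.13 and 9.73 in untreated rings. The second, 1367836_at, read 6.78, 7.15 and 7.28 in VEGF rings and 7.13, 8.69 and 6.98 in Ang1 rings, against 6.94, 7.47 and 7.0 in untreated rings. Both were highest in the RNAs that stood apart, and the probe sets disagreed on the size and, for Ang1, on the sign of the difference. For VEGF they gave -0.84 ± 0.53 and -0.07 ± 0.43, and for Ang1 -0.37 ± 0.53 and 0.46 ± 0.43. Without those RNAs they gave -0.56 ± 0.43 and 0.10 ± 0.25 for VEGF, and -0.63 ± 0.47 and 0.09 ± 0.27 for Ang1.

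Acadm, the dehydrogenase that opens beta-oxidation of medium chains, read 9.65, 9.29 and 9.34 in VEGF rings and 9.64, 10.55 and 9.61 in Ang1 rings, against 9.35, 10.48 and 9.41 in untreated rings. Apart from Ang1 replicate 2 and untreated replicate 2, the 7 arrays lay between 9.29 and 9.65. The VEGF difference was -0.32 ± 0.38 with these RNAs and 0.04 ± 0.25 without them. For Ang1 it was 0.19 ± 0.38 with them and 0.24 ± 0.28 without.

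Hadha encodes the alpha subunit of the mitochondrial trifunctional protein, which carries out the later steps for long chains. On array A it read 9.22, 8.94 and 8.75 in VEGF rings and 9.25, 6.36 and 9.21 in Ang1 rings, against 9.37, 6.94 and 9.45 in untreated rings. The RNAs that stood apart were more than 1 unit below every other array, and they set the sign for VEGF: 0.38 ± 0.82 with them and -0.45 ± 0.26 without them, where all 3 VEGF arrays lay below the 2 untreated ones. The limma adjusted p was 1 in both. For Ang1 the difference was -0.31 ± 0.82 with them and -0.18 ± 0.29 without. As for Fabp4, the share of all probe sets that separate 3 VEGF arrays from 2 untreated ones was not counted.

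On array B the same 2 RNAs did not read low for Hadha. Probe set 1394857_at read 7.55, 7.98 and 7.47 in VEGF rings and 8.25, 9.16 and 7.59 in Ang1 rings, against 7.42, 7.94 and 7.91 in untreated rings. Probe set 1394763_at read 6.34, 7.02 and 6.79 in VEGF rings and 7.40, 8.47 and 5.78 in Ang1 rings, against 5.64, 7.19 and 6.66 in untreated rings. In both, Ang1 replicate 2 was the highest of the 9 arrays, opposite to array A, and the groups overlapped. The Ang1 differences were 0.57 ± 0.40 and 0.72 ± 0.65, with limma adjusted p of 0.543 and 0.624. Over the 7 other RNAs the first was 0.26 ± 0.35, and the second probe set was below the filter.

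Eci1, the mitochondrial isomerase, read 9.51, 9.62 and 10.11 in VEGF rings and 9.67, 9.49 and 9.50 in Ang1 rings, against 9.68, 8.50 and 9.76 in untreated rings, by probe set 1367659_s_at. Untreated replicate 2 was the lowest array, and the other 8 lay between 9.49 and 10.11. The VEGF difference was 0.44 ± 0.36 with the RNAs that stood apart and 0.03 ± 0.27 without them. For Ang1 it was 0.24 ± 0.36 with them and -0.13 ± 0.30 without. The other probe set, 1370961_at, was near the floor of the scale, between 4.40 and 4.80.

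**Figure D2:**
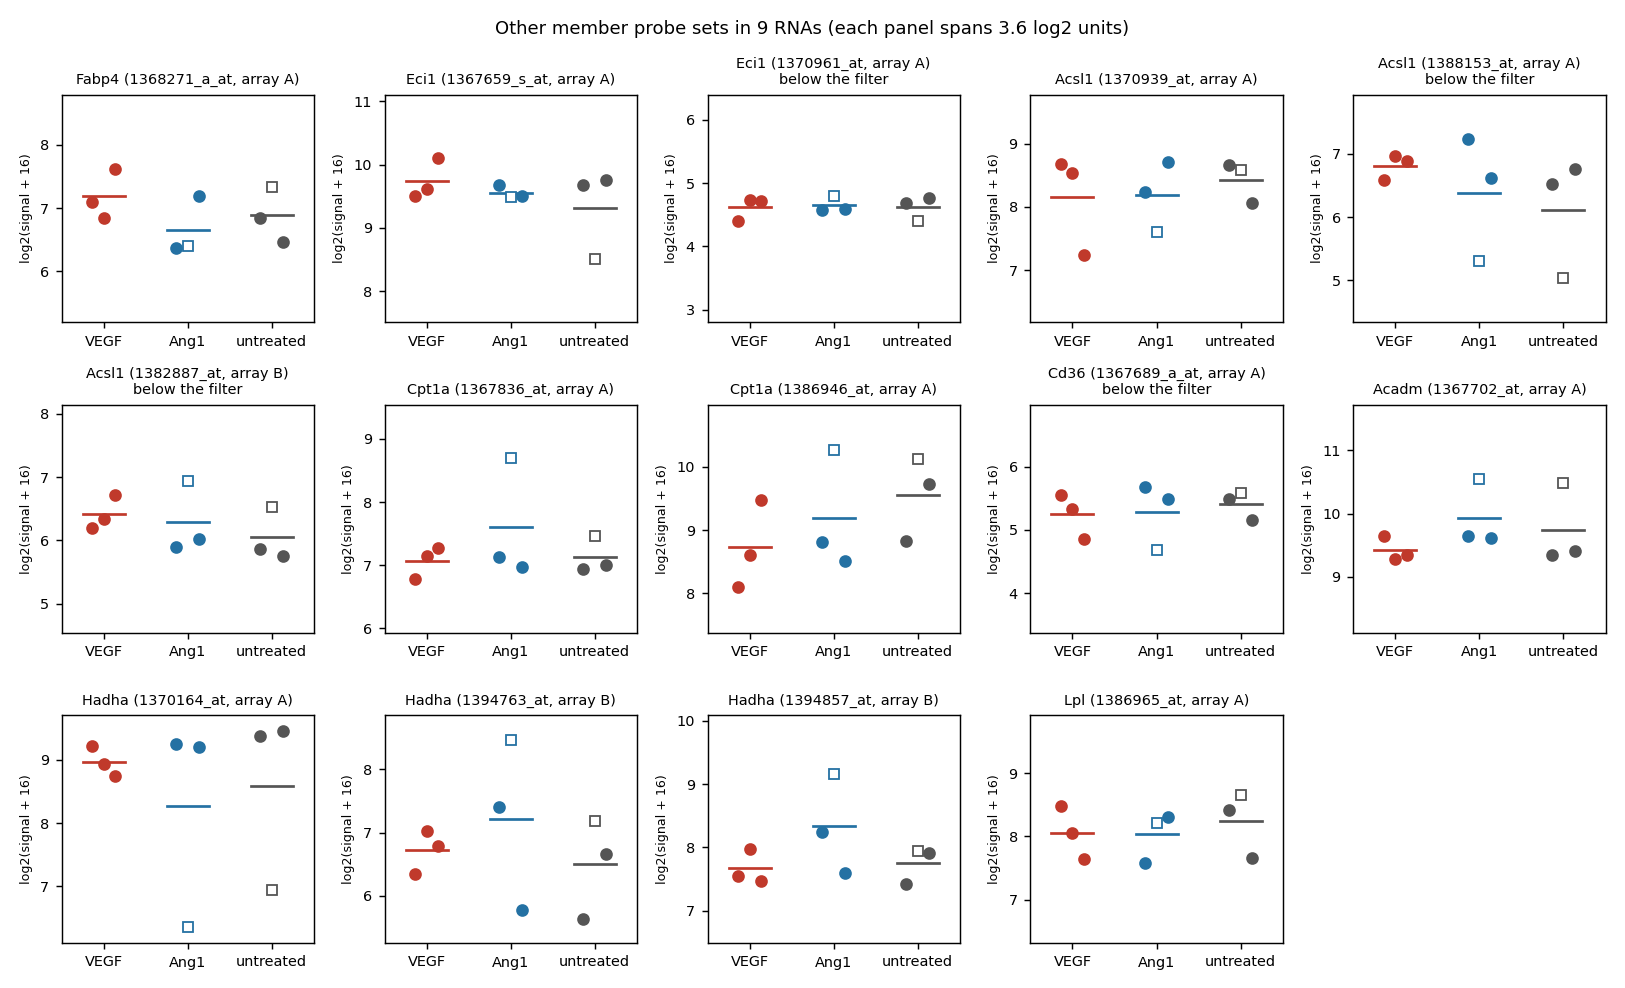
Levels of the other 14 member probe sets in log2(signal + 16), quantile normalised, in VEGF, Ang1 and untreated rings, 1 point per RNA with a bar at the mean of 3, each panel spanning 3.6 units. Open squares are Ang1 replicate 2 and untreated replicate 2, which lie at the edge of many panels, above the rest for Acadm and below it for Hadha on array A.

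The RNAs that stood apart thus set the range of many members. Both lay above the other 7 arrays for Acadm and both Cpt1a probe sets, and both below for Hadha and Eci1. These were 5 of the 10 tested members on array A, beside 29.7% of all tested probe sets there. On array B it was 0 of 2, beside 17.4%. Fabp3 and Eci3 were not among them.

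No member was called in any comparison, nor was any other probe set: 0% of the 9520 tested on array A and 0% of the 9166 tested on array B, for each factor against untreated rings and for the factors against each other. At an unadjusted p under 0.05 in limma, the 10 tested members on array A gave 2 for VEGF (Fabp3 and Eci3, by which they were chosen), beside 1.65% of all, and the same 2 for Ang1, beside 3.17%. VEGF against Ang1 gave 0 of 10, beside 1.99%. On array B 0 of the 2 tested members passed in each, beside 0.72% for VEGF, 10.5% for Ang1 and 8.48% for VEGF against Ang1.

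**Figure D3:**
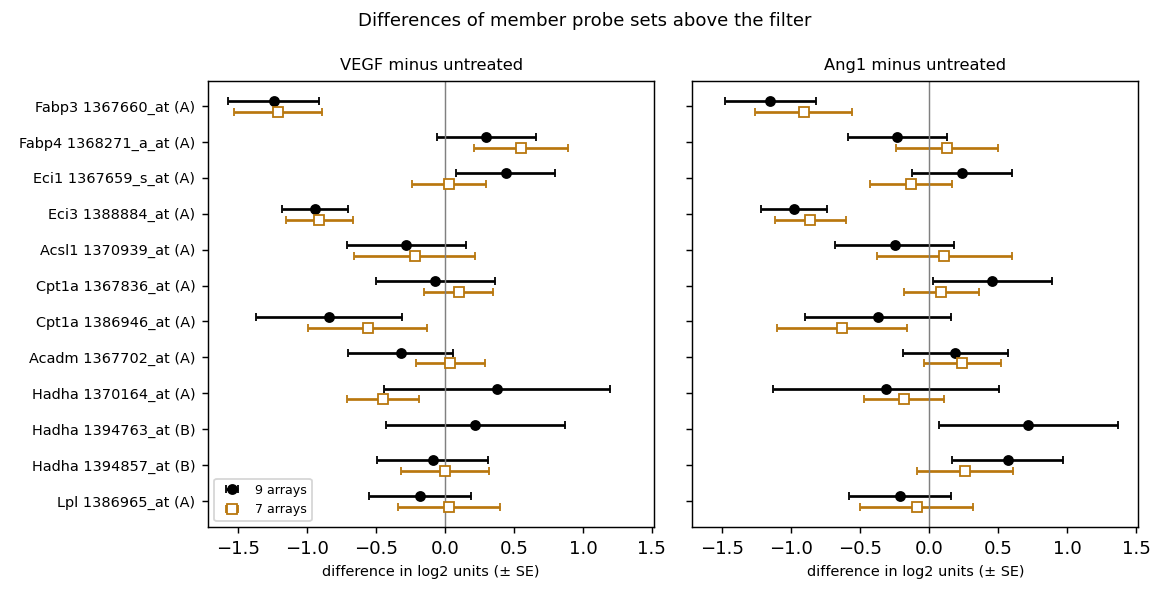
Differences of the 12 tested member probe sets from untreated rings in log2 units with their SE, VEGF on the left and Ang1 on the right, over all 9 arrays (filled circles) and over the 7 left without Ang1 replicate 2 and untreated replicate 2 (open squares; Hadha 1394763_at was below the filter there). Fabp3 and Eci3 lie furthest to the left in both panels, and both panels share the untreated arrays.

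With the brightest probe set per gene, 9 members were tested on array A. For VEGF 3 were higher and 6 lower, with a median difference of -0.28, beside 0.00 over all 7177 named genes. For Ang1 2 were higher and 7 lower, with a median of -0.25, beside -0.04. These medians include Fabp3 and Eci3 and moved with single arrays. The VEGF median was 0.03 without VEGF replicate 3 and -0.47 without untreated replicate 3. The Ang1 median was -0.50 without Ang1 replicate 3, -0.43 without untreated replicate 3, and -0.13 without Ang1 replicate 2 or untreated replicate 1. It was -0.06 with values as deposited. Without both RNAs that stood apart the medians were -0.22 for VEGF and -0.13 for Ang1.

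The rest of the pathway, read from 7 lists, gave 0 called genes in each comparison on both array types. Among 9 tested uptake and binding genes on array A the median difference was 0.11 for VEGF and 0.01 for Ang1. After Fabp3, the smallest p-values belonged to Fabp4 and Fabp5, the epidermal-type binding protein (-0.21 ± 0.34, or 0.07 ± 0.31 without the RNAs that stood apart), for VEGF. For Ang1 they belonged to the transporters Slc27a4 (0.67 ± 0.53) and Slc27a3 (0.26 ± 0.26), and without the RNAs that stood apart Slc27a4 was at -0.16 ± 0.36.

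Among 6 activation genes the medians were -0.28 for VEGF and -0.08 for Ang1. Acss2, which activates acetate, was at -0.68 ± 0.33 for VEGF, with an unadjusted p of 0.0617 in limma, and at -0.43 ± 0.26 without the RNAs that stood apart. Among 5 carnitine shuttle genes the medians were -0.25 and -0.32 for VEGF and Ang1, with the carnitine acetyltransferase gene Crat at -0.71 ± 0.60 and -0.52 ± 0.60. Crat was at -0.55 ± 0.59 and 0.08 ± 0.64 without the RNAs that stood apart.

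The list of mitochondrial beta-oxidation, in which Eci3 was filed with its relatives Eci1 and Eci2 although mouse Eci3 is peroxisomal, had 18 of 18 genes on array A above the filter. For VEGF 9 were higher and 9 lower, with a median of -0.01. For Ang1 6 were higher and 12 lower, with a median of -0.22. After Eci3 the smallest p-value for VEGF was that of Hadhb, the partner subunit of Hadha (-0.49 ± 0.26), whose VEGF arrays lay below the untreated ones. After Eci3 the smallest for Ang1 was that of Etfb, which passes electrons from the dehydrogenases (-1.14 ± 0.44). Etfb read 8.86, 8.32 and 9.12 in VEGF rings and 8.57, 7.10 and 8.47 in Ang1 rings, against 9.23, 8.67 and 9.65 in untreated rings, and Ang1 replicate 2 was the lowest. The 3 Ang1 arrays lay below the 3 untreated ones, and the limma adjusted p was 0.953. Without the RNAs that stood apart Etfb differed by -0.69 ± 0.31 for VEGF and -0.94 ± 0.34 for Ang1. Acadl, next after Etfb by p-value for Ang1, overlapped over all 9 arrays, with untreated replicate 2 at 8.85. Without those RNAs it differed by -0.95 ± 0.31 for VEGF and -0.93 ± 0.34 for Ang1, about as much as Eci3. There the treated arrays of Etfb and Acadl lay below the untreated ones. Etfdh went the other way, at 0.23 ± 0.33 for VEGF and 0.45 ± 0.36 for Ang1.

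The 7 tested genes of the peroxisomal list, which does not hold Eci3, gave 0 at an unadjusted p under 0.05 in limma on array A, with medians of 0.01 for VEGF and -0.08 for Ang1. Among the PPAR receptors and their targets 7 were tested there, with medians of 0.05 and 0.16 for VEGF and Ang1. Angptl4, the lipoprotein lipase inhibitor and a PPAR target, differed by 0.02 ± 0.52 and 0.35 ± 0.52, the second being -0.14 ± 0.52 without the RNAs that stood apart. Plin2, the lipid droplet coat gene, differed by 0.12 ± 0.37 and 0.16 ± 0.37, or 0.37 ± 0.37 and 0.47 ± 0.41 without them.

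**Figure D4:**
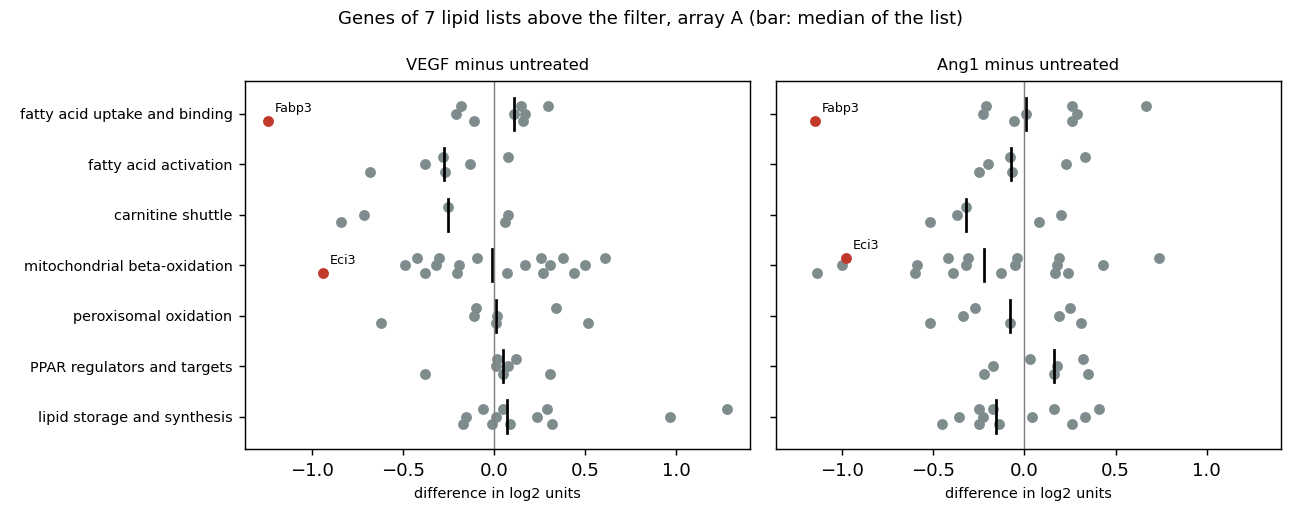
Differences from untreated rings in log2 units of the tested genes of 7 lipid lists on array A, VEGF on the left and Ang1 on the right, 1 point per gene (brightest probe set) with a black bar at the median of each list. Fabp3 and Eci3 (red) sit away from the medians of their lists, which lie between -0.32 and 0.16. They are marked because they were chosen. For Ang1, Etfb and Acadl lie further below the median of the list of Eci3 than Eci3 does.

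On array B 4 of the 12 list genes tested had an unadjusted p under 0.05 for Ang1 in limma, beside 10.5% of all tested probe sets there. These were Pdk4, Lipe, Acot2 and Acsl5, and Ang1 replicate 2 was the extreme of the 9 arrays in each. Pdk4, a kinase that spares glucose, differed by -1.55 ± 0.61 and read 8.17, 6.99 and 7.48 in Ang1 rings, against 8.26, 10.29 and 8.74 in untreated rings. The hormone-sensitive lipase gene Lipe differed by 1.36 ± 0.43 and read 10.42, 11.87 and 10.35 in Ang1 rings, against 9.70, 9.49 and 9.37 in untreated rings. In each of the 4 genes the 3 Ang1 arrays lay on 1 side of the untreated ones. The share of all array B probe sets that do so was not counted. These genes were picked by small p-values, which favours such a separation, so nothing follows from it. Acot2, a thioesterase gene, differed by -1.40 ± 0.58, and Acsl5, a relative of Acsl1, by 1.04 ± 0.42. The limma adjusted p was 0.466 for each of the 4. Without the RNAs that stood apart Pdk4 differed by -0.69 ± 0.57, Lipe by 0.88 ± 0.34, Acot2 by -0.39 ± 0.30 and Acsl5 by 0.38 ± 0.33. A Pdk4 probe set on array A differed by -0.17 ± 0.30, or 0.11 ± 0.28 without them.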

How the data were processed

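The authors deposited linear intensities per probe set, computed, per the submitters' processing notes, by MAS5. Its version is not given in the sources at hand. Of the deposited columns 0 were left unused. Control probe sets were left out. Values were taken as log2(signal + 16), quantile normalised within each array type, and kept at or above the 40th percentile of the mean. limma 3.58.1 in R 4.3.3 fitted 1 model per array type over 9 arrays with an intensity trend, and p-values were adjusted by Benjamini-Hochberg at 0.05. The fit was tested on simulated data with the measured spread of each probe set. It recovered nearly all planted differences of the largest size, and none of those about as small as the differences of Fabp3 and Eci3, so a missing call says little at that size. The planted probe sets were drawn from all tested on array A, where the median residual SD was 0.44. Noise was drawn separately for each array, so no RNAs stood apart. Eci3 had group SDs of 0.05 to 0.19, so the simulation gives no recovery for that gene. The number of arrays limits the precision. Replicate numbers were checked for pairing by the correlation of deviations from the group means. Between VEGF and untreated rings it was 0.14 to 0.41 (array A) and 0.16 to 0.29 (array B) for same-numbered RNAs. Between Ang1 and untreated rings it was 0.34 to 0.49 and 0.14 to 0.25, and between VEGF and Ang1 rings -0.15 to 0.23 and -0.21 to 0.23. Differently numbered RNAs were not compared, and Ang1 replicate 2 and untreated replicate 2 stood apart together. The values therefore do not settle whether the numbers pair the RNAs, and no label does.

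The members and lists were chosen with earlier results of these data known. Named are all member probe sets, Eci2, up to 3 genes per list and comparison with the smallest unadjusted p, and the 3 genes most correlated with Fabp3, Fabp4, Eci3 and Cd36. Angptl4, Plin2 and Pdk4 on array A were named in part for their role. Gene names came from the platform annotation, updated by gene ID. The motifs CCAAT and GGGCGG were added after the first 3 had been searched.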

Additional observations from a re-analysis of the deposited data

How the results depend on the processing

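Fabp3 and Eci3 were lower than in untreated rings under every one of the 18 alternatives that could be computed for them. Leaving out 1 RNA at a time, Fabp3 ranged from -1.50 to -1.03 for VEGF and from -1.41 to -0.95 for Ang1, and Eci3 from -1.0 to -0.88 and from -1.08 to -0.90. With values as deposited and no quantile normalisation Eci3 was at -1.07 for VEGF and -1.19 for Ang1, and with arrays scaled to the same median at -1.23 and -1.50. Without quantile normalisation limma also called 117 probe sets for Ang1 against untreated and 25 for VEGF against Ang1, both on array B, where Ang1 replicate 3 had been scaled otherwise, and 0 members. With a 60th percentile filter Fabp3 was not tested. Of 630 values of member differences under alternatives 50 had the opposite sign, none of them of Fabp3 or Eci3 against untreated rings. Adjusted p of these differences ran from 0.718 to 1.

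With the replicate block the fit called 0 probe sets in each comparison on both array types, Fabp3 stayed at -1.24 for VEGF and -1.15 for Ang1, and no call changed. Its adjusted p in limma was 1 for VEGF and 0.845 for Ang1.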
